A study of Mus musculus with 42 samples.

Results

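The genes described here are 7 that encode secreted proteins of the extracellular matrix: the thrombospondins Thbs1, Thbs2 and Thbs3, periostin (Postn), the tenascins Tnc and Tnxb, and Sparc (osteonectin). They were taken by symbol from a count table of 45317 genes, and all 7 had enough counts to be tested. The cells were mesenchymal stromal cells (MSCs) from the bone marrow of C57BL/6 mice, bought from a supplier, used at passage 9-10 and given no differentiation medium in the labels. RNA cultures started at 15000 cells/cm2 in 12-well plates, had 24 h to attach and then spent 48 h in 0.1% DMSO, the solvent control, in 100 nM rosiglitazone (ROSI), in 100 nM AGN194204 (4204) or in 50 nM tributyltin (TBT). ROSI, a diabetes drug, is a ligand of PPARγ, the nuclear receptor of fat cell formation. 4204 is a rexinoid, a ligand made for RXR, the partner receptor of PPARγ, and TBT, an organotin once used in ship paint, binds either receptor. RNA was sequenced in 6 libraries per treatment. The histone marks H3K4me3, typical of active promoters, and H3K27me3, typical of genes silenced by Polycomb, were each profiled by ChIP-seq in 4 libraries of DMSO cells and 4 of TBT cells, treated likewise but in 10 cm plates, with 1 input library per treatment. All cells came from 1 purchased product, and nothing in the labels says that libraries of a group came from separate animals, so the p-values speak only to the spread among these cultures, which may be technical.

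Matricellular proteins are secreted into the matrix but serve less as scaffold than as signals: they bind cell-surface receptors, growth factors and collagen fibres and change how a cell holds on to its surroundings. Thrombospondin-1 and -2 form trimers, bind the receptors CD36 and CD47 and inhibit the growth of blood vessels. Thrombospondin-1 can also release TGF-β from its latent form, whereas thrombospondin-2 lacks that activity and is known in bone marrow stroma as a brake on the growth of osteoblast progenitors. Thrombospondin-3 belongs to the pentameric subgroup, whose best-known members are cartilage and tendon proteins. Periostin and tenascin-C bind integrins, bind each other and are produced in periosteum, tendon and healing wounds, often under TGF-β. Tenascin-X, encoded by Tnxb, holds collagen fibrils together, and its loss causes a form of Ehlers-Danlos syndrome. Sparc binds collagen and is abundant in bone.

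The 24 RNA libraries held 3801758 to 5347365 counts assigned to genes. Levels are given as CPM, a gene's counts scaled to the size of its library with TMM factors. Since CPM ignores gene length, levels are compared between treatments and not between genes. Of the 10 stromal markers checked, which include Pdgfra, Pdgfrb, Thy1 and Cd44, none had 0 counts summed over the 6 libraries of a treatment. Lepr came close, with 8 counts in DMSO, 11 in ROSI, 17 in 4204 and 11 in TBT, and was not tested. Eng had means of 6.05 to 6.79 CPM. The summed level of the 10 lay between 3500 and 4230 CPM in every library, and Col1a1 alone had means of 1810 to 2030 CPM. Single stromal markers did move: of the 9 tested, 3 rose and 2 fell in TBT, and 5 rose and 2 fell in 4204. Of all genes tested, 15% were called higher and 13.9% lower in TBT, and 12.8% and 11.3% in 4204. Thy1 fell by log2 -0.58 in TBT and -0.81 in 4204 and Cd44 by -0.41 in both, while Pdgfrb rose by 0.35 and 0.38 and Ly6a by 0.54 and 0.57. Summed adipocyte markers (Adipoq, Plin1, Cidec, Retn and Lep) reached at most 0.424 CPM in DMSO and 1.48 CPM in ROSI. They lay at 0.455 to 2.48 CPM in 4204 and 1.97 to 3.19 CPM in TBT, with Adipoq and Lep at 0 counts in both. The osteoblast markers (Bglap, Bglap2, Ibsp, Sp7 and Alpl) summed to 0.941 to 3.98 CPM in DMSO, 1.76 to 6.36 in TBT and 4.51 to 8.78 in 4204. In 4204 Bglap, Bglap2 and Ibsp were at 0. Alpl, the 1 osteoblast marker tested, went from 2.62 ± 1.06 CPM in DMSO to 6.45 ± 1.6 in 4204 (SD, n = 6) and was called higher there. The smooth muscle markers (Myh11, Cnn1, Acta2 and Tagln) summed to 647 to 723 CPM in DMSO, 666 to 853 in TBT and 708 to 865 in 4204. The tendon marker Scx was called lower in both, with 40.1 ± 3.25 CPM in DMSO, 30.6 ± 2.25 in TBT and 33.9 ± 5.29 in 4204. Mkx was not called and Tnmd had 0 counts. Pecam1, the 1 endothelial marker tested, was called lower in 4204, from 2.68 ± 0.63 CPM to 1.31 ± 0.272. The part of these markers in the results below was not tested. In bulk RNA, fewer cells of a type and less RNA per cell cannot be told apart. The library numbered 2 had the most gene counts, the highest Tnxb and the lowest Sparc in all 4 treatments, and the lowest Thbs1 in 3 of them. With library 2 of every treatment left out (n = 5), every member kept its edgeR call in the 6 comparisons except Sparc in TBT against DMSO, which then passed.

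Thbs2, Tnxb and Postn stood higher in cells given TBT than in DMSO, and Thbs2 and Tnxb also in cells given 4204. Postn was called higher in 4204 too, but lost that call in 9 of 12 fits with 1 library left out. Thbs3 was called lower in TBT, with ranges that overlap. Against DMSO, 3 of the 7 genes passed the test as higher in TBT (Thbs2, Tnxb and Postn), beside 15% of the 12529 genes tested, and 1 as lower (Thbs3), beside 13.9%. Against DMSO, 4 were higher in 4204 (Thbs1, Thbs2, Tnxb and Postn), beside 12.8% of genes, and 1 was lower (Tnc), beside 11.3%. The 1 of 7 lower in either compound is about the share of all genes. The median log2 difference of the 7 genes was 0.09 in TBT and 0.11 in 4204, and that of all tested genes was -0.01 and 0. ROSI changed none of the 7 by edgeR's test, beside 0.615% of genes called higher and 0.423% lower; 1 of the 7 (Tnc) had an unadjusted p under 0.05, and DESeq2 also called 0. These 3 comparisons share the same 6 DMSO libraries. Scaling to the ERCC spike-ins shifted the median of all genes by 0.09 in TBT against DMSO and by 0.13 in TBT against ROSI, and it cut the genes called lower in TBT from 1745 to 293 while those called higher went from 1878 to 1802. In 4204 the same scaling gave 908 higher and 300 lower in place of 1600 and 1414.

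**Figure D1:**
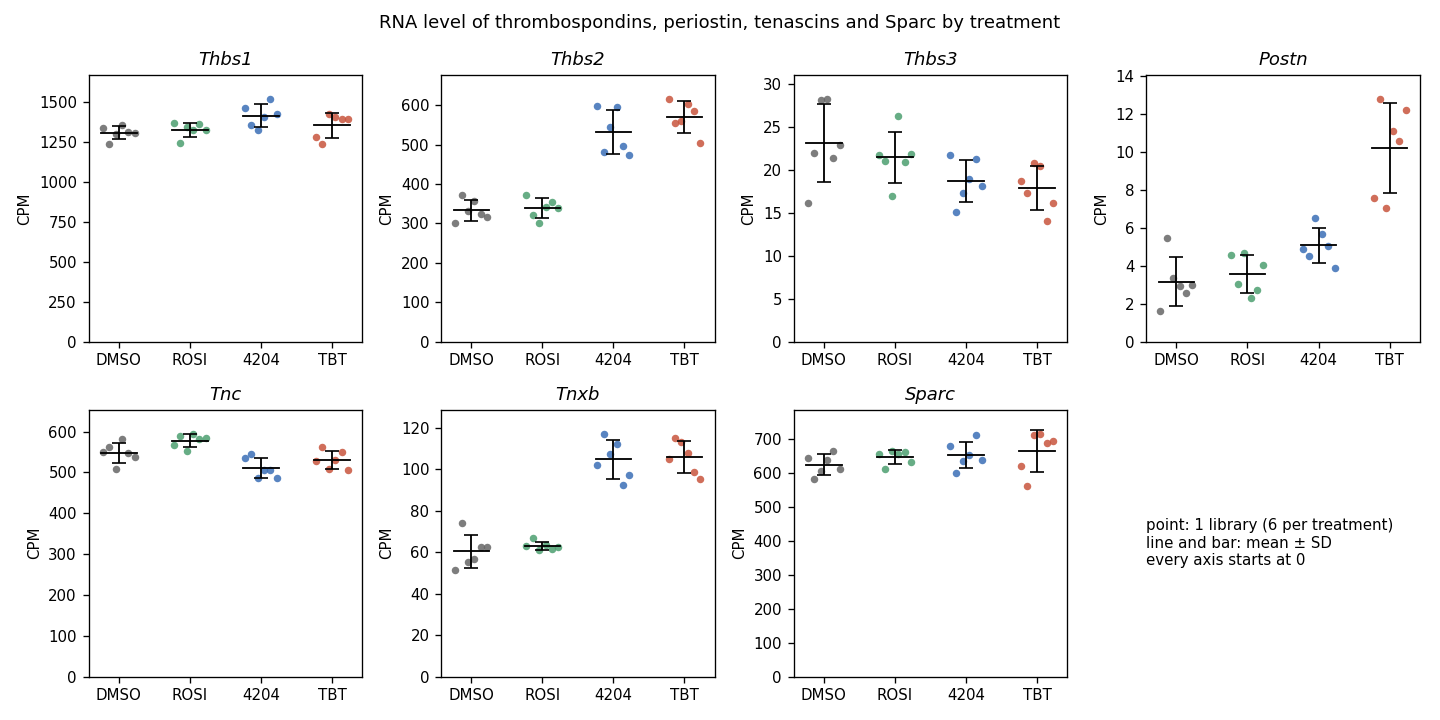
RNA level in CPM (vertical axes, each from 0) of the 7 genes in the 4 treatments, with 1 point per library and the mean ± SD of 6 libraries. Thbs2 and Tnxb form 2 tiers, DMSO with ROSI below and 4204 with TBT above, whereas Postn in TBT stands above every other library.

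Thbs2, a thrombospondin that forms trimers, lies at chr17:14665500-14694262 on the minus strand (GRCm38.p6). In DMSO its lowest, median and highest library values were 300.6, 328.5 and 371.5 CPM, and in ROSI they were 301.2, 340.2 and 372.9 CPM. In 4204 they were 473.6, 520.7 and 598.7 CPM, and in TBT 503.7, 572.4 and 615.3 CPM. Every TBT and every 4204 library was therefore above every DMSO and every ROSI library, while DMSO and ROSI overlapped almost fully. The mean rose from 333.5 ± 26.2 CPM in DMSO to 570.3 ± 40.2 CPM in TBT (SD, n = 6), a 1.71-fold rise (log2 0.77 ± 0.06 SE, adjusted p = 8.16e-14 by edgeR). In 4204 the mean was 531.6 ± 56.2 CPM, 1.59-fold over DMSO (log2 0.67 ± 0.06, adjusted p = 6.39e-12 by edgeR). TBT and 4204 did not differ past the threshold (log2 0.10, 95% interval -0.01 to 0.21, adjusted p = 0.548), at doses that themselves differed. ROSI against DMSO gave log2 0.02, with an interval from -0.10 to 0.14.

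Tnxb, at chr17:34660453-34719815 on the plus strand, followed the same 2 tiers. The lowest, median and highest values were 51.46, 59.55 and 74.3 CPM in DMSO and 60.89, 62.84 and 66.64 CPM in ROSI. They were 92.55, 104.7 and 117.1 CPM in 4204 and 95.32, 106.4 and 115 CPM in TBT. The 12 libraries with 4204 or TBT again lay above all 12 others, and the ROSI libraries all lay inside the range of DMSO. Against DMSO, Tnxb rose 1.75-fold in TBT (log2 0.81 ± 0.07 SE, adjusted p = 2.68e-12 by edgeR) and 1.73-fold in 4204 (log2 0.79 ± 0.07, adjusted p = 7.16e-12). The difference between TBT and 4204 was log2 0.01, with a 95% interval from -0.11 to 0.14. The body of Tnxb overlaps the pseudogene Cyp21a2-ps, which had 0 to 3 counts summed over the 6 libraries of a treatment, and the small RNA gene Gm24389, which had 0 counts in all of them (a count of 0 allows up to 3).

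Postn, at chr3:54359267-54391041 on the plus strand, had the fewest counts of the members, from 7 to 68 per library, and the largest fold change of them in TBT. The DMSO libraries had 1.637, 2.954 and 5.489 CPM as the lowest, median and highest value, and the ROSI libraries 2.329, 3.538 and 4.683 CPM. In 4204 these were 3.895, 4.962 and 6.525 CPM, and in TBT 7.026, 10.83 and 12.78 CPM. The lowest TBT library was above the highest library of every other treatment, whereas 4204 overlapped DMSO, with 2 of its 6 libraries above all DMSO libraries. Postn rose 3.17-fold in TBT (log2 1.66 ± 0.22 SE, adjusted p = 1.34e-07 by edgeR). It also stood higher in TBT than in 4204, by log2 1.00 (95% interval 0.59 to 1.42, adjusted p = 0.00497 by edgeR). It was the 1 member of the 7 called between these compounds, beside 0.407% of genes called higher in TBT. None was called lower by edgeR, beside 0.439% of genes; 0 had an unadjusted p under 0.05 in that direction, and DESeq2 called 0. The rise in 4204 against DMSO (log2 0.66 ± 0.24, adjusted p = 0.0414) kept its size (log2 0.66 to 0.67) but not its call under DESeq2 (adjusted p = 0.0527), ERCC scaling (0.126) or without the low-count filter (0.0659). The call was also lost when any of DMSO libraries 1, 3, 4, 5 and 6 or 4204 libraries 1, 3, 4 and 5 was left out, with adjusted p from 0.0556 to 0.115. With library 2 of every treatment left out the difference was log2 0.94 ± 0.26 (adjusted p = 0.00643 by edgeR).

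Thbs3 (chr3:89215180-89226841, plus strand) moved the other way. Its lowest, median and highest values were 16.14, 22.43 and 28.25 CPM in DMSO and 17.01, 21.35 and 26.31 CPM in ROSI. They were 15.15, 18.5 and 21.74 CPM in 4204 and 14.01, 17.97 and 20.83 CPM in TBT. The ranges overlapped: 1 of the 6 TBT libraries was below all DMSO libraries, and the lowest DMSO library was below 5 of the TBT libraries. The fall in TBT was log2 -0.37 ± 0.12 SE (adjusted p = 0.0189 by edgeR), and in 4204 the difference was -0.31 ± 0.12 (adjusted p = 0.0568). The call in TBT was lost under ERCC scaling (adjusted p = 0.188) and without DMSO library 3 (0.0637), DMSO library 4 (0.0635) or TBT library 5 (0.0592). In 4204 the difference passed the threshold when DMSO library 1 (0.0123), 4204 library 1 (0.0376) or 4204 library 5 (0.0438) was left out. Mtx1, a mitochondrial import gene that starts within 5 kb of Thbs3, had 51.4 ± 2.87 CPM in DMSO and 47.7 ± 6.04 CPM in TBT (SD, n = 6), a difference that did not pass (adjusted p = 0.221 by edgeR).

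Thbs1, Tnc and Sparc changed little. Thbs1 (chr2:118111876-118127133) had 1234, 1309 and 1352 CPM as its lowest, median and highest value in DMSO, 1324, 1411 and 1516 CPM in 4204, and 1235, 1391 and 1420 CPM in TBT. Only the difference of 4204 from DMSO passed among those against DMSO, at log2 0.11 ± 0.03 SE (adjusted p = 0.015 by edgeR), and under ERCC scaling the difference was 0.12 with an adjusted p of 0.166. The 4204 and DMSO ranges overlapped, with 4 of 6 treated libraries above all controls, and ROSI (1243, 1332 and 1365 CPM) lay close to DMSO.

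Tnc (chr4:63959785-64047015, minus strand) had its lowest mean in 4204 and its highest in ROSI. Its lowest, median and highest values were 507.6, 548.2 and 580.9 CPM in DMSO, 485.6, 505.9 and 544.7 in 4204, and 506.4, 530.1 and 561.6 in TBT. In ROSI they were 551.4, 582 and 594.5 CPM, so every ROSI library was above every 4204 library. Against DMSO, Tnc fell in 4204 by 0.10 on the log2 scale (SE 0.03, adjusted p = 0.0271 by edgeR). That call was lost under ERCC scaling (0.568) and when any of DMSO libraries 2, 4 and 5 or 4204 libraries 3, 4, 5 and 6 was left out (adjusted p from 0.0519 to 0.0914). In TBT the difference from DMSO was -0.04 (adjusted p = 0.385) and turned to 0.05 under ERCC scaling.

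Sparc (chr11:55394159-55420080, minus strand) passed in no comparison. Its lowest, median and highest values were 583, 624.7 and 665.1 CPM in DMSO and 561.2, 691.1 and 715.3 CPM in TBT. TBT libraries were both the lowest and the highest of the 2 groups. The log2 difference was 0.09, with a 95% interval from 0 to 0.18 (adjusted p = 0.14 by edgeR), and it passed without TBT library 2 (0.00638), without library 2 of every treatment (log2 0.11, 0.0149), under ERCC scaling (0.0236) and with a replicate block (0.0438). In 4204 and in ROSI its differences from DMSO were log2 0.06 and 0.05.

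The same TBT and 4204 libraries were set against ROSI. In TBT, 3 members were higher than in ROSI (Thbs2 at log2 0.75, Postn at 1.52 and Tnxb at 0.75), beside 15.2% of genes, and Tnc was lower by log2 -0.12 ± 0.03 (adjusted p = 0.00722), beside 13.5%. In 4204, 3 were higher than in ROSI (Thbs1 at log2 0.09, Thbs2 at 0.65 and Tnxb at 0.73), beside 13.5% of genes, and Tnc was lower by log2 -0.18 ± 0.03 (adjusted p = 0.000132 by edgeR), beside 11.2%. As against DMSO, 1 member lower in either compound is about the share of all genes. Under ERCC scaling Tnc was not called against ROSI in either compound: the log2 difference was 0.01 in TBT and -0.13 in 4204 (adjusted p = 0.934 and 0.375). That scaling also called Thbs1 and Sparc higher in TBT than in ROSI (log2 0.15 and 0.16). The call of Thbs1 between 4204 and ROSI (adjusted p = 0.0476) was lost under ERCC scaling (0.0838) and without any of ROSI libraries 2, 3, 4 and 6 or 4204 libraries 1, 4, 5 and 6, with adjusted p from 0.0544 to 0.122.

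**Figure D2:**
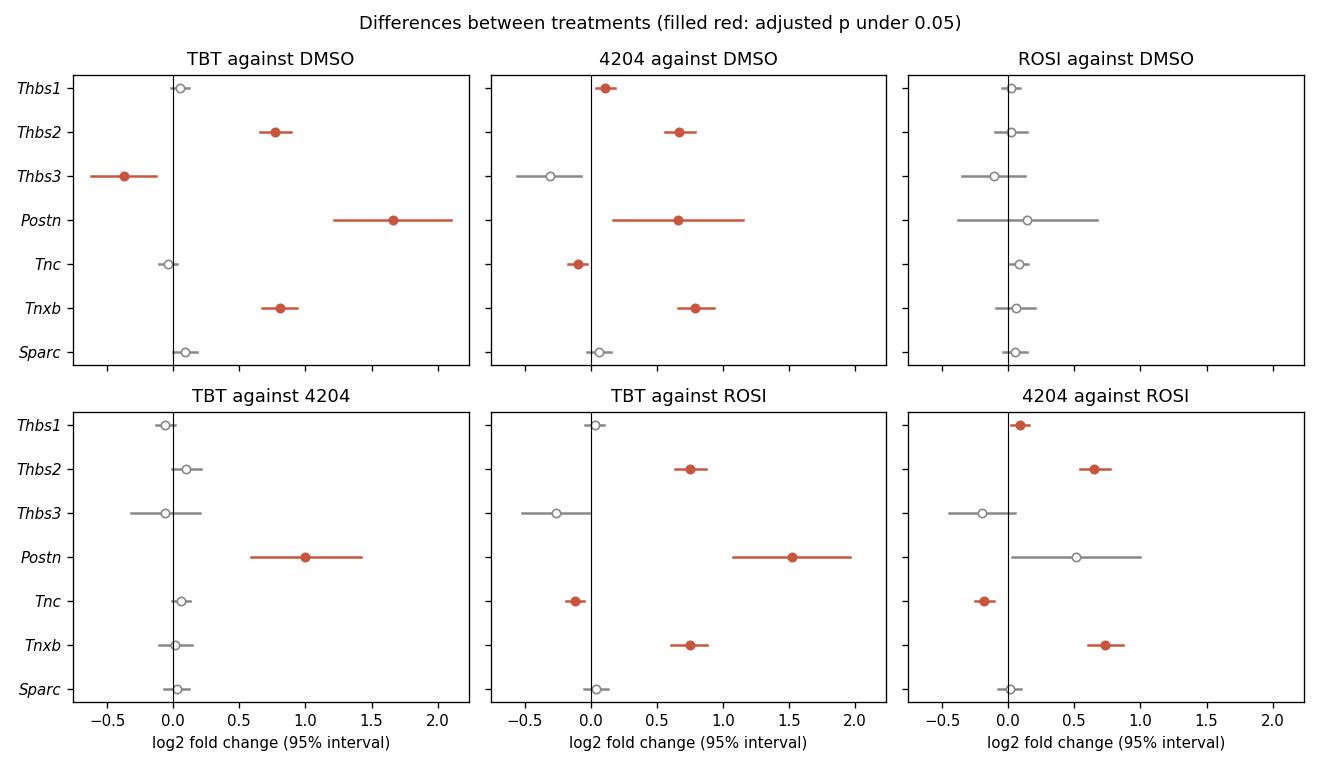
Log2 fold change (horizontal axis) of each gene in the 6 comparisons between treatments, with the 95% interval of the edgeR fit; red filled points passed an adjusted p of 0.05. The intervals of Thbs2 and Tnxb stand clear of 0 in the 4 comparisons of TBT or 4204 with DMSO or ROSI and include 0 in the other 2.

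Across the 24 libraries the log2 CPM of Thbs2 and Tnxb went together (Pearson r = 0.94), each also with Postn (r = 0.79 and 0.77), and Thbs1 went with Sparc (r = 0.81). These values describe the libraries, which share the treatment tiers, the depth scaling and the cultures, and carry no test. Among 10397 genes of sufficient level, those closest to Thbs2 were Aff3 (r = 0.973), a nuclear regulator of transcription, and C1qtnf1 (r = 0.97), a secreted relative of adiponectin. C1qtnf1 had a mean of 25.6 CPM in DMSO and 58.1 CPM in TBT. Closest to Tnxb were Synpo (r = 0.971), an actin-binding protein with 53 CPM in DMSO and 169 CPM in TBT, and Nid1 (r = 0.97), a basement membrane linker. Postn was closest to Aldh1l2 (r = 0.858) and Ptgfrn (r = 0.85), and Thbs3 to Dnajb5 (r = 0.787) and P2rx7 (r = 0.745). Tnc was closest to Sipa1l2 (r = 0.812) and Kcna4 (r = 0.801). Thbs1 was closest to the cytoskeletal genes Myh9 (r = 0.925) and Tpm1 (r = 0.92), and Sparc to Mif (r = 0.962) and Ptms (r = 0.957), genes whose treatment means differ little.

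The starts of the 3 genes that rose are shown because Thbs2 and Tnxb moved in the same tiers and both have an H3K4me3 region at the start. Each line gives the 250 bases before the annotated start, from RefSeq (GRCm38.p6), 5′ to 3′ on the gene's strand, with matches to any of 6 motifs, on either strand, in capitals. Postn has 2 annotated starts, at 54359267 and 54361107. The only start at hand for Tnxb, at 34670535, lies inside the gene's span, which begins at 34660453.
Thbs2 (chr17:14694263-14694512, minus strand): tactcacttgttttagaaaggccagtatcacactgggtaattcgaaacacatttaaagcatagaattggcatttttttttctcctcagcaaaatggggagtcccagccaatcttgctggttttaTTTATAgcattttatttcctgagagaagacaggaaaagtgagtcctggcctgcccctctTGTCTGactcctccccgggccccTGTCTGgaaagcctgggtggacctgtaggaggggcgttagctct
Tnxb (chr17:34670285-34670534, plus strand): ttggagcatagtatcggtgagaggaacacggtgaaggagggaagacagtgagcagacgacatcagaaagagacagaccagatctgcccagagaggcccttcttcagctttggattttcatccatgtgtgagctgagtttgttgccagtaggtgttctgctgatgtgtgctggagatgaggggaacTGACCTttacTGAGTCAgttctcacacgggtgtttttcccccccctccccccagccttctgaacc
Postn, upstream start (chr3:54359017-54359266, plus strand): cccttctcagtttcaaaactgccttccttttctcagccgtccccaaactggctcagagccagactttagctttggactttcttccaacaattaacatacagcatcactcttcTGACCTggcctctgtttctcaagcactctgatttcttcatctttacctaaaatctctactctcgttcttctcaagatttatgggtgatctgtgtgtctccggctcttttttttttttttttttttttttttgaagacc
Postn, downstream start (chr3:54360857-54361106, plus strand): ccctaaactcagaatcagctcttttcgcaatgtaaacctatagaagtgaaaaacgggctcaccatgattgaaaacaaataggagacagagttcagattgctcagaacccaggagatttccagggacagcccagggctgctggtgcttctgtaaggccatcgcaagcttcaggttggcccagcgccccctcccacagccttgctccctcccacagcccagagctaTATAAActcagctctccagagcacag

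The search covered the 300 bases from 250 before to 50 after each start, on both strands, and no 2 matches shared bases. It used the TATA box, spelled TATAAA, the nuclear receptor half-site AGGTCA, the GC box, spelled GGGCGG, the AP-1 site TGACTCA, the TEAD site, spelled GGAATG, and the SMAD-type site, spelled CAGACA. RefSeq sequence was at hand for 6 of the 7 genes (8 starts), Thbs1 being the exception. Thbs2 holds the SMAD-type letters on the reverse strand at 67 and 44 bases before its start and a reverse TATA box at 126 bases before. The SMAD-type letters are in 21% of 32851 mouse promoters of this length and the TATA box in 13.6%. Tnxb holds the nuclear receptor half-site on the reverse strand at 65 bases before the start and the AP-1 letters, also reversed, at 55 bases before, which are in 16.3% and 5.2% of promoters. The downstream start of Postn has a TATA box at 26 bases before it, and the upstream start has a reverse half-site at 138 bases before. Elsewhere, Sparc holds the SMAD-type letters, Thbs3 the GC box (in 35.7% of promoters), and Tnc the TATA box, the GC box and the SMAD-type letters. The TEAD letters, in 14.7% of promoters, are in none of the 8 windows. A match here is a run of letters and not a shown binding site.

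At the start of 6 of the 7 genes lay a region with H3K4me3 islands in all 8 libraries, and the difference closest to the threshold was at Thbs2. Such a region comes within 2 kb of the start, and the islands of a single library need not cover the start itself. Islands of enriched reads, called by the authors in each library, were joined into regions (mm10), and a region was tested where all 8 libraries had an island. By edgeR's test 0 of the 6 start regions passed as higher in TBT and 0 as lower, beside 0.109% and 0.0546% of 12813 regions; 1 had an unadjusted p under 0.05 in each direction (Thbs2 higher, Tnc lower). At Thbs2 (chr17:14681400-14697999, over the start and the first part of the gene) the DMSO libraries had 75.3, 80.7, 69.2 and 73.3 CPM, here counted over the tested regions, and the TBT libraries 118, 84.9, 93.9 and 106. All 4 TBT libraries were above all 4 DMSO libraries. The log2 difference was 0.44 ± 0.09 SE (adjusted p = 0.108 by edgeR), and the adjusted p stayed above the threshold when each library was left out in turn (0.0575 to 0.309). The authors' deposited table lists this interval as higher in TBT, with log2 concentrations of 8.02 in DMSO and 8.66 in TBT and an FDR of 0.0116.

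These sums move with how much of the region was called. At Thbs2 the islands covered 8250 ± 2537 bp in DMSO and 11200 ± 3713 bp in TBT (SD, n = 4), with ranges of 5600 to 10800 and 7400 to 16000 bp that overlap. Island CPM per kb of island, over all island reads, was 6.997, 6.971, 10.91 and 10.55 in the DMSO libraries and 6.831, 10.64, 9.331 and 8.063 in the TBT libraries, so the density did not separate the groups. The longest coverage (16000 bp, TBT library 1) had the lowest density and the shortest (5600 bp, DMSO library 3) the highest. Since density depends on length too, it cannot decide whether the level of the mark differed. With islands limited to an FDR of 1e-06 the log2 difference was 0.33 (adjusted p = 0.385).

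**Figure D3:**
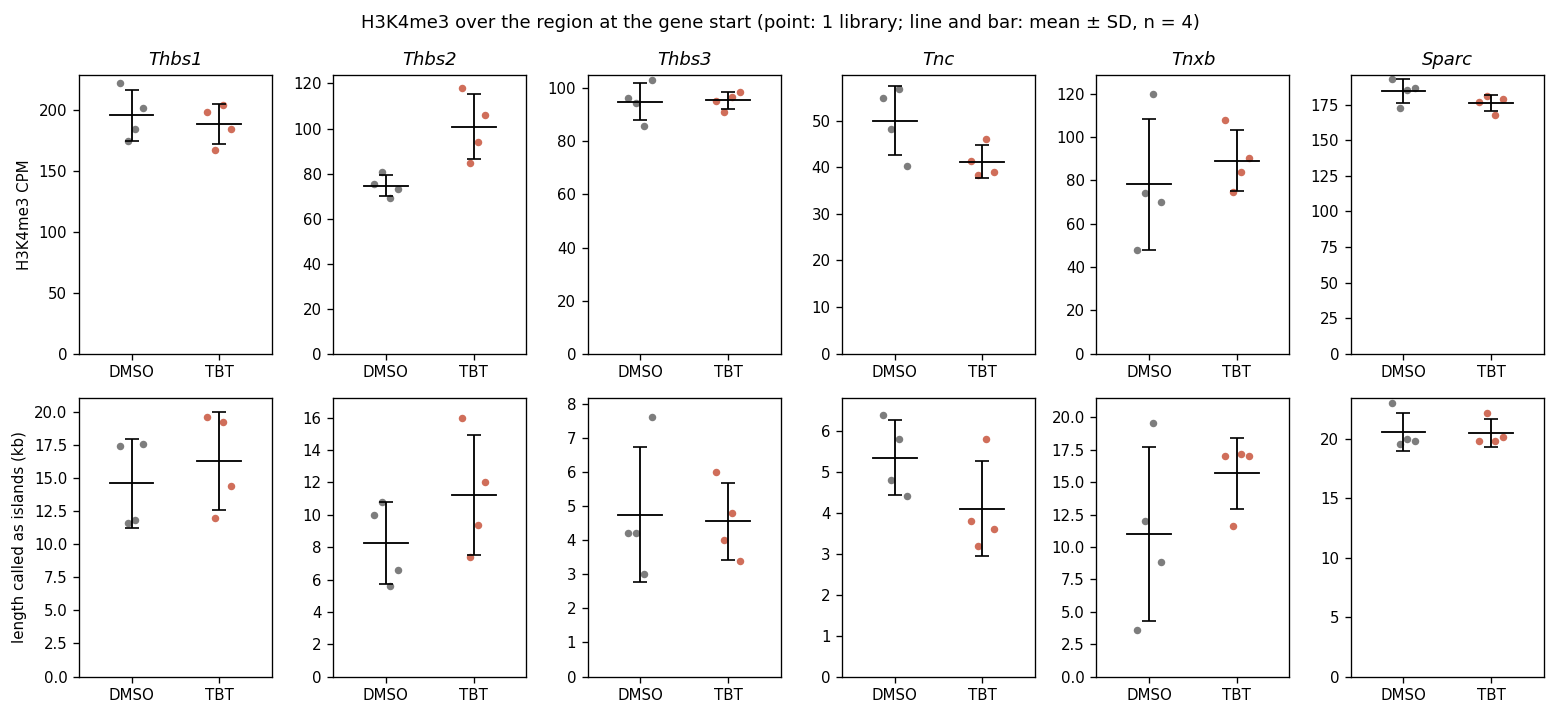
H3K4me3 over the start regions of 6 genes in 4 DMSO and 4 TBT libraries: CPM over tested regions (upper row), and the length called as islands in kb (lower row), each point 1 library with the mean ± SD. Only at Thbs2 do all TBT libraries lie above all DMSO libraries in the upper row, and its island lengths overlap between the groups. The regions of Thbs1 and Sparc span nearly the whole gene or all of it.

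Tnxb, whose RNA rose by a like amount to that of Thbs2, had a start region (chr17:34668800-34689799) with 47.9, 74.3, 120 and 70.1 CPM in the DMSO libraries and 108, 74.4, 83.6 and 90.1 in the TBT libraries. The DMSO libraries included both the lowest and the highest value, and the log2 difference was 0.21 ± 0.21 SE (adjusted p = 0.847 by edgeR). Islands there covered 3600 to 19600 bp in DMSO and 11600 to 17200 bp in TBT. Their highest fold over input was 1.28 to 2.73 in the DMSO libraries and 1.73 to 3.42 in the TBT libraries. A second region over the first annotated part of Tnxb also holds Atf6b and Fkbpl (chr17:34639200-34664799) and gave 160 ± 17.8 CPM in DMSO and 132 ± 19.2 in TBT (SD, n = 4, adjusted p = 0.441 by edgeR). Its log2 difference was -0.28 ± 0.1 SE (unadjusted p = 0.0134 by edgeR), and it is not among the 6 start regions counted above. Inside the gene, an island at chr17:34698800-34707999 was called in 0 of 4 DMSO and 3 of 4 TBT libraries, with a fold over input of 1.29 to 2.01. A like island lay towards the end of Thbs2 (chr17:14665000-14674999) in 0 DMSO and 2 TBT libraries, with folds of 1.31 and 1.56, and neither was tested.

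At Postn, H3K4me3 was scarce. An island at the upstream start (chr3:54356800-54359999) was called in 3 of 4 DMSO libraries and 1 of 4 TBT libraries, at 6.329 to 9.064 CPM of island reads in the former and 6.982 in the latter. None was called over the downstream start. This is the opposite direction to the RNA, in a region with 47 to 89 reads per library, and when regions with an island in 4 of 8 libraries were tested its log2 difference was -1.77 ± 2.41 SE. The non-coding gene Gm31095 overlaps Postn here, and it was not a row of the count table.

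In the start regions of the other 4 genes H3K4me3 stayed within the spread of the libraries or close to it. The regions of Thbs1 and Sparc span nearly the whole gene or all of it, so their sums do not speak for the start alone. Tnc (chr4:64042600-64049799) had 54.8, 48.3, 56.7 and 40.2 CPM in DMSO and 41.4, 38.4, 46.1 and 39 in TBT, which overlap (log2 -0.28 ± 0.11 SE, adjusted p = 0.52 by edgeR). Islands there covered 4400 to 6400 bp in DMSO and 3200 to 5800 bp in TBT. Thbs1 (chr2:118106600-118127599) gave 195 ± 21.2 in DMSO and 188 ± 16.6 in TBT, and Sparc (chr11:55394200-55424199) 184 ± 8.42 and 176 ± 5.65 (SD, n = 4). The region at Thbs3 (chr3:89209600-89217199), which also holds the start of Mtx1, gave 94.8 ± 6.93 and 95.4 ± 3.14, a log2 difference of 0.01 with a 95% interval from -0.12 to 0.14, while its RNA was lower in TBT. A second region towards the end of Thbs3, shared with Muc1 (chr3:89221200-89232399), had islands in 3 DMSO and 4 TBT libraries and was not tested.

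H3K27me3 was called at these genes only here and there. No region at any of them had an island in all 8 libraries, so none was tested; Thbs1 and Sparc had none at all. At the start of Tnxb an island (chr17:34669000-34687399, at the same start as the H3K4me3 region) was called in 0 DMSO libraries and in TBT libraries 2 and 4. In those it covered 9200 and 17800 bp at 1.22 and 1.15 times input. The unscaled reads were 475 ChIP and 548 input in library 2, and 939 ChIP and 1109 input in library 4. The authors' deposited table lists this interval as higher in TBT, with log2 concentrations of -0.19 in DMSO and 6.28 in TBT and an FDR of 9.71e-07. Of the 4329 H3K27me3 peaks the authors list, 1656 had no island in any DMSO library. The DMSO concentrations of those 1656 ran from -0.19 to 6.62, so the value at Tnxb is their lowest. A further stretch across the end of Tnxb and the neighbouring C4b (chr17:34704200-34753399) had islands in 1 DMSO and 2 TBT libraries. Thbs2 had 3 islands, each in 1 TBT library, and Thbs3 and Postn 1 each, in 1 TBT library. Tnc had 2, 1 in a DMSO and 1 in a TBT library, and Tnxb 2 more, each in 1 DMSO library. The H3K27me3 libraries held 8741573 to 11358001 island reads in TBT, library 2 having the fewest, and 6153079 to 9574234 in DMSO. Islands covered 154.91 to 176.87 Mb in TBT and 106.37 to 166.85 Mb in DMSO. Both pairs of ranges overlap, and the part of depth and coverage in these calls was not tested.

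Of 23 other matricellular genes, 15 were tested; 7 rose and 1 fell in TBT, and 7 rose and 3 fell in 4204, with median log2 differences of 0.14 and 0.17 beside -0.01 and 0 for all genes. The shares of all genes called, against which these and the following counts stand, were 15% higher and 13.9% lower in TBT, and 12.8% and 11.3% in 4204. Wisp2 (CCN5) had the smallest adjusted p in both: it went from 13 ± 3.14 CPM in DMSO to 79.1 ± 7.06 in TBT and 63.1 ± 6.87 in 4204 (SD, n = 6), log2 rises of 2.59 and 2.27. In ROSI it rose to 21 ± 3.32 CPM (log2 0.68, adjusted p = 0.00217 by edgeR). Spp1 (osteopontin) fell in TBT by log2 -0.12 (adjusted p = 0.0478 by edgeR), and Fbln5, an elastic fibre protein, fell in 4204 by log2 -0.21. For genes of this and the following lists no values were taken under ERCC scaling, so its effect on such small differences is not known. The nearest relatives of the 7 genes were rare: Thbs4 had 0 to 4 counts and Tnn 5 to 7 summed over the 6 libraries of a treatment, Comp 16 to 27 and Tnr 18 to 56, and none of these was tested. Sparcl1, the closest relative of Sparc, rose by log2 0.99 ± 0.25 in TBT and 1.65 ± 0.23 in 4204, from 2.76 ± 1.05 CPM in DMSO.

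Among 22 receptors and binding partners, 16 were tested; 3 rose and 4 fell in TBT, and 2 rose and 2 fell in 4204, with medians of 0.01 and 0. The 2 of 16 in either direction in 4204 are about the share of all genes. Cd47, a thrombospondin receptor, rose by log2 0.19 ± 0.07 in TBT and 0.21 ± 0.07 in 4204. Cd36, the other receptor named above, had too few counts to be tested. Summed over the 6 libraries of a treatment it had 0 counts in DMSO, 14 in ROSI, 24 in 4204 and 80 in TBT. Egfr, which tenascin-C can engage, had the smallest adjusted p of those that rose, at 152 ± 12.3 CPM in DMSO, 179 ± 10.4 in TBT and 193 ± 14.3 in 4204 (SD, n = 6). The laminin receptor subunit Itga6 fell from 127 ± 10.5 CPM in DMSO to 93.3 ± 15.6 in TBT and 91.3 ± 5.45 in 4204. Itgb8, an integrin subunit that takes part in activating TGF-β, fell the most of the tested genes of this list. It went from 8.74 ± 2.34 CPM to 4.69 ± 1.49 and 5.32 ± 1.6 (log2 -0.88 and -0.73). Itgb3 and Itga3 also fell in TBT, by log2 -0.21 and -0.14, and Itga5 rose by 0.15.

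Of 18 matrix ligands and enzymes, 14 were tested; 10 rose and 2 fell in TBT, and 9 rose and 2 fell in 4204, with a median of 0.14 in both. Lox, which cross-links collagen, rose from 732 ± 21.6 CPM in DMSO to 971 ± 56.6 in TBT (log2 0.41) and to 857 ± 46.5 in 4204. Adamts1, a protease that can cut thrombospondins, rose by log2 0.48 and 0.44. Collagen XII (Col12a1), which binds tenascin-X, rose by log2 0.74 and 0.41. Decorin (Dcn), a proteoglycan that binds collagen and TGF-β, fell from 15.1 ± 1.59 CPM to 5.19 ± 1.15 in TBT and 7.66 ± 2.39 in 4204 (log2 -1.53 and -0.97). Lox, Adamts1, Col12a1 and Dcn passed the edgeR test in both comparisons, and collagen I and III rose by at most log2 0.22.

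All 21 TGF-β and mechanical regulators were tested; 5 rose and 3 fell in TBT, and 2 rose and 5 fell in 4204, with medians of 0.06 and 0.05. The 3 lower in TBT and the 2 higher in 4204 are near or below the shares of all genes. Tgfb2, a TGF-β ligand, rose from 27.8 ± 2.74 CPM in DMSO to 45 ± 4.04 in TBT and 40 ± 3.51 in 4204 (SD, n = 6). Its receptor gene Tgfbr2 fell from 348 ± 19.2 CPM to 278 ± 11.8 and 273 ± 16.4. Smad2 and Tead1 fell in both, by log2 -0.11 to -0.17. In ROSI, where Wisp2 rose, the receptor gene Egfr (log2 -0.22) and the regulators Smad3 (-0.22) and Klf4 (-0.41) were called lower by edgeR.

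**Figure D4:**
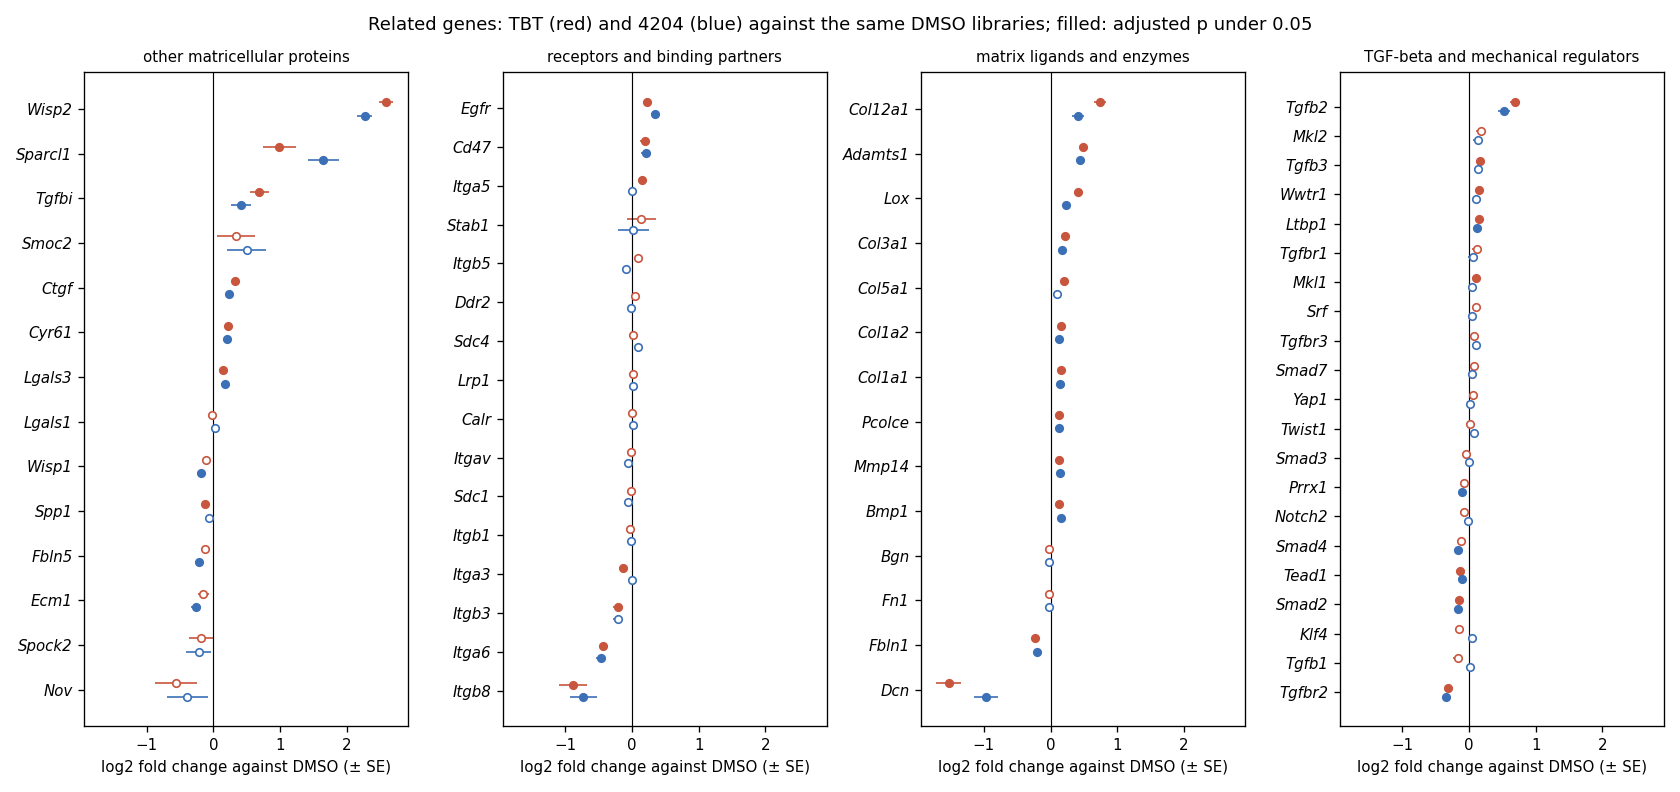
Log2 fold change ± SE (horizontal axis) of the tested genes, all but 1, of the 4 related lists in TBT (red) and 4204 (blue), both against the same 6 DMSO libraries; filled points passed an adjusted p of 0.05. Wisp2 stands furthest to the right and Dcn furthest to the left in TBT, and Itgb8 and Itga6 are the lowest of the receptor list.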

How the data were processed

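RNA counts came from 24 libraries, ChIP islands from 16 libraries (8 per mark). The authors deposited raw read counts per gene; neither the counting program nor its strand setting is given in the sources used here, and reads of overlapping genes cannot be told apart. DiffBind, SICER, DESeq2, STAR, FastQC and SAMtools and the builds GRCm38 and mm10 are named in the submitters' processing notes. The deposited island files give, per library, ChIP and input read counts, p-values and the fold (ratio) over input; the file names carry an FDR of 0.001, 200-bp windows and 600-bp gaps. The deposited differential tables give log2 concentrations and folds with p-values, made by the authors; their header names stand 1 column left of the values, so columns were read by position, and the fold column equals, to rounding, the DMSO minus the TBT concentration.

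Gene counts were fitted with edgeR 4.0.16 in R 4.3.3 (TMM, filterByExpr, quasi-likelihood F test, 1 fit of all 24 libraries, Benjamini-Hochberg over 12529 genes, threshold 0.05), after leaving out entries that name no gene (reads outside genes were 20.9% to 24.3% of counts). Islands of a mark that touched were joined, reads summed per library and region, and regions with an island in all 8 libraries fitted in the same way; a region within 2 kb of a start is its start region, and the whole gene ± 2 kb served for Thbs1. Both fits were tried on simulated data. For H3K4me3 the simulated spread between libraries was smaller than the 9.75% fitted to these regions. That trial therefore does not show how the H3K4me3 fit does at its own spread. Likeness used genes of mean log2 CPM of at least 3, the first 2 per gene. Named genes were the 7 members, genes overlapping them or starting within 5 kb, those likeness genes, and the gene of smallest adjusted p in each direction per list in TBT and in 4204; Cd47, Col12a1, Sparcl1, the other tenascins and thrombospondins, the collagens, Smad2, Tead1, Smad3, Klf4, Thy1, Ly6a and the integrins Itgb8, Itgb3, Itga3 and Itga5 were added after their values were seen. One gene of the matricellular list is counted but not reported here by name. Members and lists were chosen with earlier results of these data known. DESeq2 1.42.0, other scalings and filters, a replicate block and each library left out were alternatives; the fit without library 2 of every treatment was chosen after seeing the data. No source used here gives sequencing runs, and their part was not tested.

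Replicate numbers as a whole did not meet the bar set for pairing (every pair above 0.1): deviations of same-numbered RNA libraries correlated at a median r of 0.02 (-0.05 to 0.12), and of same-numbered ChIP libraries at -0.04 to 0.08. Over the 10403 genes of mean log2 CPM of at least 3, the libraries numbered 2 deviated alike (median r 0.16, 0 to 0.25), and the other numbers had medians of 0.02 to 0.06.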

Additional observations from a re-analysis of the deposited data

Results flagged for a closer look

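In 1 of the groups of libraries checked for a value far from the rest, the Thbs1 level of ROSI library 2 (1243 CPM) stood apart below the other 5 ROSI libraries, which lay at 1321 CPM or above. Library 2 was also the lowest for Thbs1 in DMSO (1234 CPM) and in TBT (1235 CPM), and the second lowest in 4204 (1351 CPM). The gap in ROSI was 0.639 of the group's range. Chance sets apart about 1 in 20 such groups, and 42 were checked. Without this library the difference of Thbs1 between 4204 and ROSI no longer passed (log2 0.08, adjusted p = 0.122 by edgeR), and without library 2 of every treatment it passed (log2 0.08, adjusted p = 0.0399).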

How the results depend on the processing

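The rises of Thbs2 and Tnxb in TBT and in 4204 and of Postn in TBT passed under every RNA alternative run; leaving out each library gave log2 0.75 to 0.81, 0.63 to 0.71, 0.76 to 0.88, 0.75 to 0.87 and 1.54 to 1.91. The smaller differences of the members depend on scaling, and markers and genes of the related lists were given under the main scaling only. Under ERCC scaling members called were 0 lower in TBT, 2 higher and 0 lower in 4204, 5 higher and 0 lower for TBT against ROSI, and 0 lower for 4204 against ROSI. All genes called lower were then 293, 300, 12, 7, 172 and 184 in TBT, 4204 and ROSI against DMSO, TBT against 4204, TBT against ROSI and 4204 against ROSI, and those higher were 908 in 4204, 21 in ROSI and 13 in TBT against 4204. Signs turned under it for Tnc in TBT (0.05) and TBT against ROSI (0.01), for Thbs1 (-0.02) and Thbs2 (-0.03) in ROSI, and for Thbs1 (0.01) and Thbs3 (0.02) in TBT against 4204. Genes lower in ROSI were 102 without the count filter and 121 with 2 groups only, and in TBT against 4204 31 with 2 groups only.

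With a replicate block, members lower in 4204 were 2 (Thbs3 at adjusted p = 0.0491 by edgeR), genes lower in ROSI 110, and genes in TBT against 4204 86 higher and 83 lower; it changed no other member's call against DMSO than these and Sparc in TBT. Same-numbered libraries were not treated as pairs: 6 of 24 libraries correlated best with their own number, although those numbered 2 deviated alike. Leaving out library 2 of every treatment, an alternative chosen after seeing the data, gave 4 members higher in TBT and changed no other count of members.

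Leaving out 1 library gave 0 to 1 members lower in TBT, 0 to 2 in 4204, 32 to 70 genes lower in ROSI, and 33 to 66 genes higher in TBT against 4204. Signs turned in differences near 0: Thbs2 in ROSI (-0.01 to 0.05), Tnxb in TBT against 4204 (-0.02 to 0.05), Sparc in 4204 against ROSI (-0.01 to 0.03), and H3K4me3 at Thbs1 (-0.10 to 0.02) and Thbs3 (-0.04 to 0.05). H3K4me3 regions called were then 5 to 9 higher and 0 to 3 lower in place of 14 and 7. At a stricter island FDR 2 were lower, and with an island in 4 of 8 libraries 43 were higher and 24 lower. For H3K27me3, edgeR called 0 of 2882 regions (176 had an unadjusted p under 0.05) and 10 higher of 11064 with an island in 4 of 8. No alternative called a member's start region. Depth limits Postn most, at 7 to 68 counts.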
